A study of Mus musculus with 6 samples.

Results

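The SLC39 zinc importers are described here across 6 RNA sequencing libraries of cultured mouse ovary. The 10 members, Slc39a1, Slc39a3, Slc39a6, Slc39a7, Slc39a8, Slc39a9, Slc39a10, Slc39a11, Slc39a13 and Slc39a14, were taken by gene symbol from a count table of 27098 genes, as family members known to be expressed in ovary and oocyte. All 10 were in the table and all 10 passed the filter on low counts, which kept 17475 genes. Ovaries of newborn mice, 3 days after birth, were kept in DMEM/F12 medium with 1% antibiotics. The control group received this medium alone and the PRP group the same medium with 2% platelet-rich plasma (PRP) for 2 h, with 3 libraries in each group. The labels name no strain, genotype or number of animals per library. According to the design text the plasma was of human origin and had been activated by thrombin; thrombin alone or another plasma is not among the labelled groups. Whether libraries are separate cultures or animals is not stated, so the tests set differences against a spread that may be technical.

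SLC39 proteins, also called ZIP proteins, carry zinc into the cytosol, either across the plasma membrane or out of organelles. SLC30 proteins, also called ZnT proteins, move zinc the other way, metallothioneins bind it, and the transcription factor MTF1 senses it and binds metal response elements in its target promoters. Zinc is a regulated signal in the ovary: the oocyte takes it up while it grows and matures, and zinc availability is known to govern meiotic arrest and egg activation. The comparison of PRP with medium alone asks here whether transcripts of the importers differ after 2 h of exposure.

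No importer passed the test for a change with PRP. Together the 10 transcripts came to 810.3 ± 37.6 CPM in the controls (SD, n = 3) and to 806.7 ± 32.0 CPM with PRP, where CPM is a gene's share of its library's counts on the usual scale, with TMM-adjusted library sizes. In edgeR's quasi-likelihood test 0 of the 10 members passed an adjusted p of 0.05, where 0% of all tested genes did, and 0 had an unadjusted p under 0.05, where 3.19% did. DESeq2 and limma-voom also called 0 members. Log2 fold changes, PRP minus control, were above 0 for 4 members and below 0 for 6. Their median was -0.02, beside 0.00 over all genes tested. In log2 CPM the groups separated in 0 of the 10 members, where 9.21% of all tested genes had groups that did not overlap.

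Libraries held 35568000 to 36568367 counts. Ovarian cell types were present in every library: 7 oocyte markers summed to between 1005 and 1344 CPM, 6 granulosa markers to between 881.5 and 944.3 CPM, and 4 macrophage markers to between 25.7 and 31.6 CPM. The 4 surface epithelium markers summed to 133.0, 147.5 and 136.8 CPM in control and to 152.7, 176.4 and 162.0 CPM in PRP, without overlap. Their keratin Krt19 (log2 fold change 0.36, edgeR adjusted p = 0.0331) and the oocyte marker Zp3 (0.24, 0.0411) were called in the fit with the replicate block described below. That fit called 0.12% of all tested genes. In the unpaired edgeR fit both had an adjusted p of 0.9998. There, 3 of the 4 surface epithelium markers and 6 of the 7 oocyte markers had log2 fold changes above 0. Control 3 stood apart. Its 6 erythroid markers summed to 1507 CPM against 108.5 to 225.2 CPM in the other 5 libraries, and all 6 were highest there. Slc4a1, the anion exchanger of the red cell membrane, was at 197.5 CPM in control 3 and at 0.03 to 0.25 CPM elsewhere. Values without control 3 are therefore given beside the members below, and the part of red cells or surface epithelium in any result was not tested. In bulk tissue, fewer cells of a type and less RNA per cell cannot be told apart.

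Promoter sequences are shown first for the members in which a script found the core of the metal response element, because this is the site through which zinc itself acts on genes of zinc handling. The core was searched as TGCACNC or TGCGCNC on both strands, and none of the matches in members overlap each other. RefSeq promoter windows of GRCm38, each 250 bases before to 50 bases after a start, were matched for 8 of the 10 members. The match stood in 5 of their 11 windows, and in 34.1% of the 17354 windows of all tested genes. The stretches below run 5′ to 3′ along the gene's strand with the matched core in capitals (GNGTGCA or GNGCGCA where it lies on the other strand). The Slc39a3 match begins 144 bases before the start, in chr10:81037442-81037470. That of Slc39a8 begins 19 bases before its second start, in chr3:135825627-135825655. Slc39a11 has a match 15 bases before the first of its starts, in chr11:113650090-113650118, and another 140 bases before a second, in chr11:113565938-113565966. For Slc39a13 it begins at base 18 of the transcript, in chr2:91070281-91070309.
Slc39a3: catttggtagcTGCACTCatgtttagaaa
Slc39a8: ttatctctaaaGGGTGCAgggcctgatct
Slc39a11, first start: aaagggaaggaGAGCGCAgcgaacccacg
Slc39a11, second start: tttcctggggtGTGTGCActgccctaggc
Slc39a13: tgtgacgtggcTGCACGCcgggggtggct
Slc30a1, an exporter shown for comparison because it is a textbook target of MTF1: acgggggttccGAGTGCAaagcaaagttt

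The Slc30a1 stretch lies in chr1:191906727-191906755, with its match 43 bases before the start, and is 1 of 2 matches in that window. No match was found in the windows of Slc39a1, Slc39a7, Slc39a9 and Slc39a10. These matches describe letters only. The 4 members with a match had log2 fold changes of 0.19 (Slc39a3), -0.07 (Slc39a8), -0.07 (Slc39a11) and 0.00 (Slc39a13), on either side of 0.

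Per transcript length, the 10 members spanned a 16.1-fold range of levels. Values are TPM, here counts per kilobase of the gene's longest annotated transcript brought to the same total in every library, and ± is the SD over the 6 libraries. Slc39a1, a plasma membrane importer of most tissues, averaged 226.6 ± 13.7 TPM. Slc39a7, which releases zinc from the endoplasmic reticulum and Golgi, averaged 204.4 ± 14.0 TPM, and the ranges of these 2 genes overlapped. Together they made up 56.9% of the members' summed TPM. Slc39a6 followed at 96.4 ± 5.1 TPM and Slc39a10 at 69.3 ± 4.6 TPM, each separate from its neighbours in every library. These are related plasma membrane importers that are known to serve zinc uptake by the mouse oocyte. A middle group of Slc39a11 (38.1 ± 4.3 TPM), Slc39a13 (35.8 ± 0.9 TPM) and Slc39a9 (32.7 ± 1.6 TPM) overlapped from one gene to the next. All 3 encode importers found in the Golgi or other inner membranes. Slc39a14 stood below them at 25.6 ± 1.4 TPM. Slc39a3 at 14.3 ± 1.6 TPM and Slc39a8 at 14.1 ± 1.1 TPM came last and overlapped each other. The median of tested genes with a length was 22.1 TPM.

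**Figure D1:**
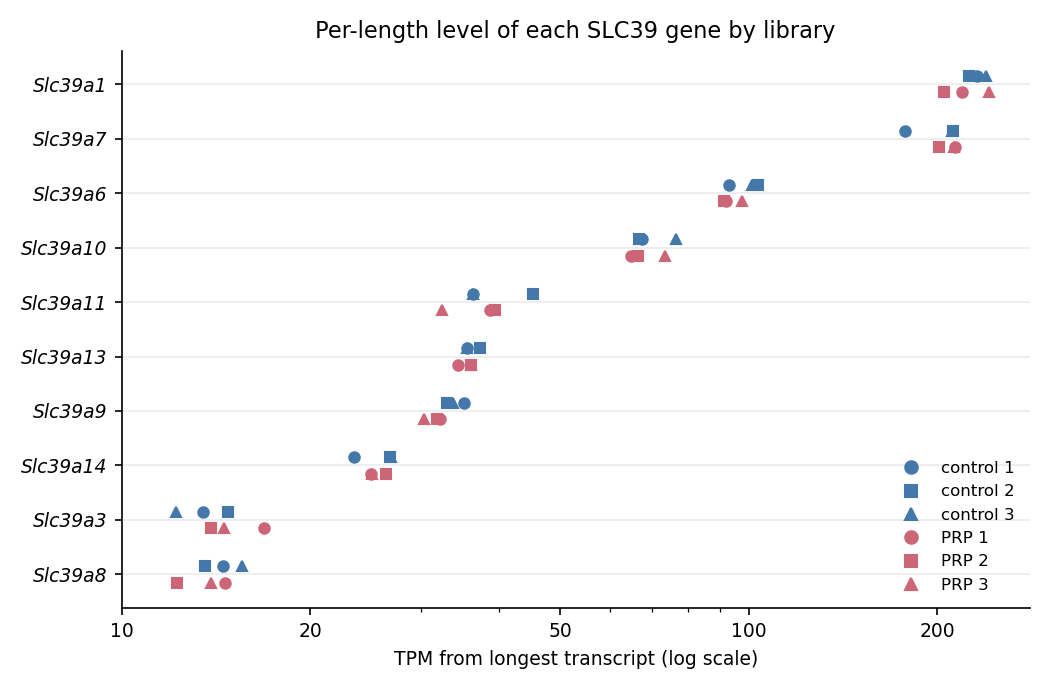
Level of each SLC39 gene per transcript length in each of the 6 libraries, as TPM on a log axis, with control in blue and PRP in red and the marker shape giving the replicate number. Slc39a1 and Slc39a7 lie near 200 TPM and overlap, and Slc39a3 and Slc39a8 lie near 14 TPM. Along the TPM axis blue and red points mix in every row except that of Slc39a9, where all blue points have higher TPM than the red ones.

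This order, the 16.1-fold range and the 56.9% share rest on the length chosen. The range and the share were computed with the longest transcript only. With the median length of all annotated transcripts, which includes short fragments, Slc39a7 led at 161.9 TPM, followed by Slc39a6 at 139.1, Slc39a10 at 101.1 and Slc39a1 at 88.2 TPM. Slc39a14 moved from rank 8 to rank 5, at 69.6 TPM. Slc39a3 and Slc39a8 were the lowest pair under either length, at 6.11 and 6.89 TPM with the median. The longest transcript of Slc39a7, Slc39a8 and Slc39a14 is annotated as a retained intron, and the transcript used in these ovaries was not determined.

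Among the plasma membrane importers of general distribution, Slc39a1 (Entrez 30791, chromosome 3, 90248190 to 90253613, GRCm38) was at 181.6, 174.9 and 190.3 CPM in controls 1 to 3 and at 175.2, 163.1 and 195.4 CPM in PRP 1 to 3. The lowest and the highest of the 6 values were both PRP libraries, so the control range lay inside the PRP range. The log2 fold change of Slc39a1 was -0.03 (95% interval -0.21 to 0.14), and 0.00 without control 3. Slc39a3 (Entrez 106947, chromosome 10, 81028540 to 81037338) was at 17.0, 18.5 and 15.6 CPM in control and at 21.7, 17.7 and 18.9 CPM in PRP. PRP 1 was the highest library and control 3 the lowest, while PRP 2 lay below control 2. Slc39a3 had the largest estimate of the 10 members, a log2 fold change of 0.19 (95% interval -0.09 to 0.47; edgeR adjusted p = 0.9998), and 0.13 without control 3. Its interval left room for a 1.38-fold rise, the widest upper bound of any member.

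The pair of importers linked to oocyte zinc uptake showed no separation of the groups. Slc39a6 (Entrez 106957, chromosome 18, 24579881 to 24603817) was at 120.1, 132.4 and 132.6 CPM in control and at 121.0, 119.5 and 129.3 CPM in PRP. Control 1 lay among the PRP values and the 6 libraries stayed within a 1.11-fold range. The log2 fold change of Slc39a6 was -0.06 (-0.21 to 0.09), and -0.03 without control 3. Slc39a10 (Entrez 227059, chromosome 1, 46807544 to 46925776), whose transcription MTF1 is known to repress when zinc is ample, was at 123.3, 121.3 and 141.8 CPM in control and at 120.9, 123.3 and 138.3 CPM in PRP. The libraries numbered 3 were the high ones in both groups, and the other 4 lay between 120.9 and 123.3 CPM. Erythroid markers summed to 174.3 CPM in PRP 3 and to 1507 CPM in control 3, and the part of red cells in the Slc39a10 values was not tested. The replicate number took 97.4% of the variance of Slc39a10 in log2 CPM and the treatment 0.567%. Its log2 fold change was -0.02 (-0.20 to 0.17). Without control 3 it was 0.06, of opposite sign, with an edgeR adjusted p of 0.9888.

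Neither of the members that also carry manganese and iron, Slc39a8 and Slc39a14, passed the test. Slc39a8 (Entrez 67547, chromosome 3, 135816882 to 135888572) was at 20.3, 18.8 and 22.1 CPM in control and at 20.8, 17.4 and 20.02 CPM in PRP. Control 3 was highest and PRP 2 lowest, with the other 4 values of the groups interleaved. Its log2 fold change of -0.07 had the widest lower bound of the 10 members, -0.34, which is 0.791-fold, and it was -0.01 without control 3. Slc39a14 (Entrez 213053, chromosome 14, 70303467 to 70351452), known in liver as an importer induced by interleukin 6, was at 39.9, 45.3 and 46.4 CPM in control and at 43.3, 45.6 and 43.9 CPM in PRP. Control 1 was the low library and the 3 PRP values all lay between it and control 3. The log2 fold change of Slc39a14 was 0.01 (-0.18 to 0.20), and 0.06 without control 3.

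Slc39a14 stayed within a 1.16-fold range over the 6 libraries. Of 12 interleukin 6 and NF-kB response genes, 0 passed the test and 7 were highest in control 3. The share of all tested genes highest in control 3 was not computed. Their median log2 fold change was -0.13, with 5 above 0. Saa3, an acute phase protein, was at 24.6 CPM in control 3 and at 0.72 to 1.12 CPM in the other libraries. Lcn2, a siderophore-binding protein, was at 4.03 CPM there and at 0.58 to 1.10 CPM in the others. Socs3 and Cebpd are among the 5 above 0. Socs3 was at 119.5, 77.9 and 126.7 CPM in control and at 151.7, 82.6 and 140.5 CPM in PRP. Its log2 fold change was 0.21 ± 0.29 (SE) in the unpaired fit and 0.19 ± 0.06 with the replicate block (edgeR adjusted p = 0.196). Cebpd was called in the blocked edgeR fit without replicate 3 alone (0.45, adjusted p = 0.0397). With all replicates its blocked value was 0.20 ± 0.20 (SE; edgeR adjusted p = 0.80). It was at 69.2 CPM in control 3 and at 56.9 CPM in PRP 3. Slc39a14 was itself highest in control 3 (46.4 CPM), followed by PRP 2 (45.6 CPM). Whether it follows these genes was not tested.

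Among the organelle importers, Slc39a7 (Entrez 14977, chromosome 17, 34028266 to 34031690) was at 143.5, 169.8 and 172.7 CPM in control and at 175.7, 164.7 and 176.8 CPM in PRP. Control 1 was the low library, and the other 5 lay between 164.7 and 176.8 CPM. For Slc39a7 the log2 fold change was 0.09 (-0.09 to 0.27). It was 0.14 without control 3 and 0.01 without control 1. Slc39a13 (Entrez 68427, chromosome 2, 91061781 to 91070441), known for its role in connective tissue, was at 29.2, 30.3 and 29.6 CPM in control and at 28.8, 30.1 and 30.5 CPM in PRP. These 6 values lay within a 1.06-fold range. The log2 fold change of Slc39a13 was 0.00 (-0.19 to 0.20), and 0.00 without control 3. Slc39a11 (Entrez 69806, chromosome 11, 113244851 to 113650200) was at 33.5, 41.5 and 34.0 CPM in control and at 36.4, 36.9 and 30.9 CPM in PRP. Control 2 was the high library, and PRP 1 and PRP 2 lay between it and the other controls. For Slc39a11 the log2 fold change was -0.07 (-0.33 to 0.19), and -0.11 without control 3. The Slc39a11 span overlaps Cog1 by 1023 bases, and the strand setting of the counting is not given in the sources used here, so reads there may have gone to either gene.

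Slc39a9 (Entrez 328133, chromosome 12, 80643883 to 80683342), an importer of the Golgi that has also been described as a membrane androgen receptor, came nearest to separate groups. It was at 63.4, 59.0 and 61.8 CPM in control and at 59.2, 58.3 and 56.4 CPM in PRP. Only control 2, at 59.0 CPM, fell below a PRP library, PRP 1 at 59.2 CPM. That overlap depends on the scale. In TPM its controls lay at 33.0 to 35.1 and its PRP libraries at 30.4 to 32.2, without overlap. The share of all genes without overlap in TPM was not computed. Within replicate numbers its log2 CPM differed by -0.10, -0.02 and -0.13, PRP minus control. Slc39a9 was the 1 member of 10 with the same sign in 3 of 3 pairs, where 33.1% of all tested genes had that and 16.3% were lower in all 3. Its log2 fold change was -0.08 (-0.23 to 0.07; edgeR adjusted p = 0.9998), and -0.08 without control 3. Slc39a9 overlaps Erh, a gene of 2705 counts on average, by 229 bases.

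**Figure D2:**
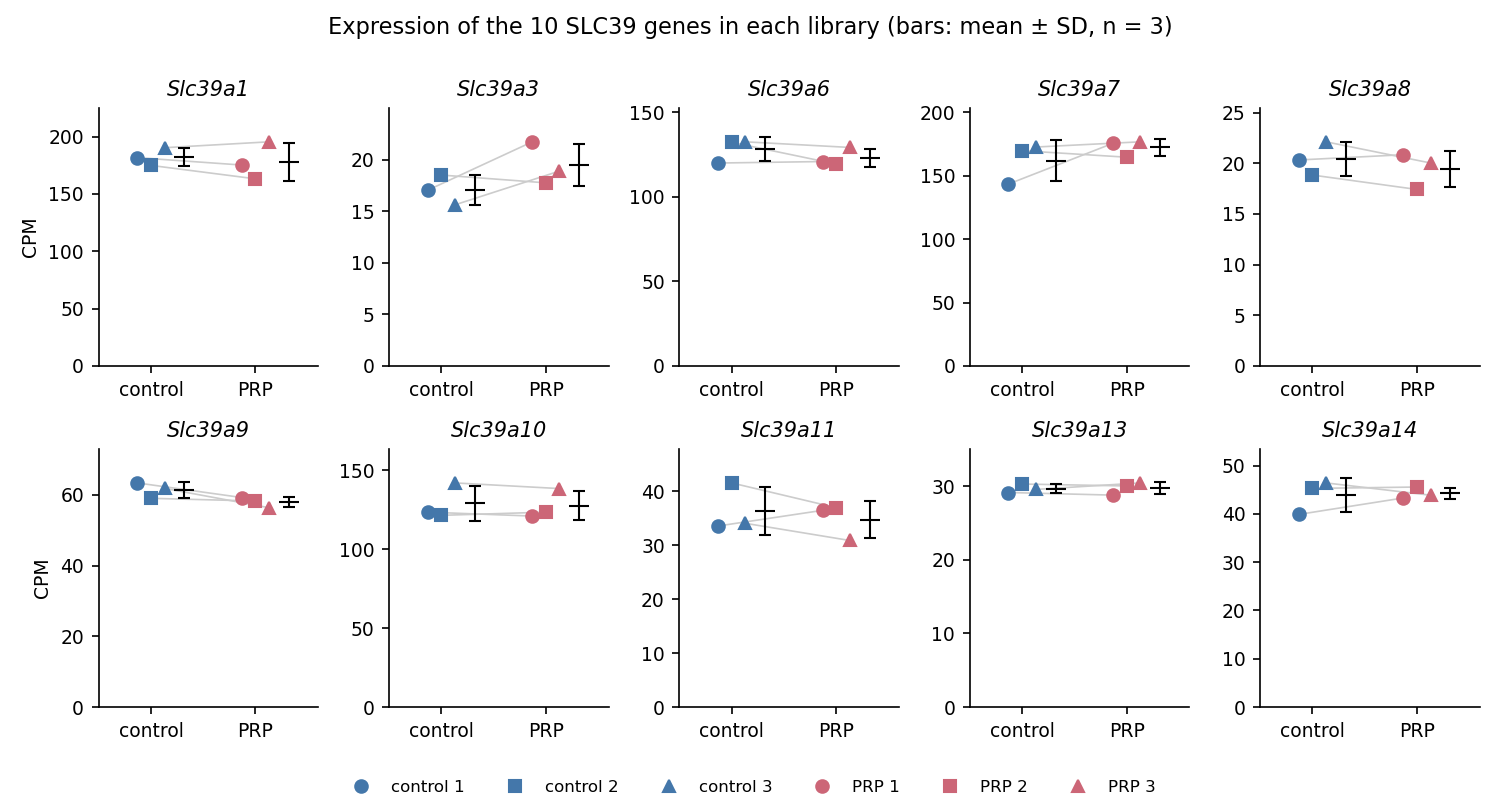
CPM of each SLC39 gene in the 3 control (blue) and 3 PRP (red) libraries, with axes from 0, grey lines joining libraries of the same replicate number and black bars for the mean ± SD. The groups overlap in all 10 panels, and both libraries numbered 3 are high for Slc39a10.

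The replicate numbers were taken to pair the libraries, and with the number as a block the members again did not pass. Over all tested genes 0.12% passed in that fit, 21 genes, and 11.2% had an unadjusted p under 0.05, against 0 of 10 members on either count. The smallest blocked edgeR p-value among members was 0.104, for Slc39a3 (log2 fold change 0.19 ± 0.11 SE, adjusted p = 0.558). Standard errors of the members had a median of 0.083 without the block and 0.065 with it, beside 0.140 and 0.103 over all genes. Median differences within replicate numbers 1, 2 and 3 were 0.02, -0.05 and -0.04 over the 10 members. Slc39a3 differed by 0.35, -0.06 and 0.27 in replicates 1 to 3, high in the first and the third. Slc39a7 differed by 0.29, -0.04 and 0.03, high in replicate 1 alone.

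**Figure D3:**
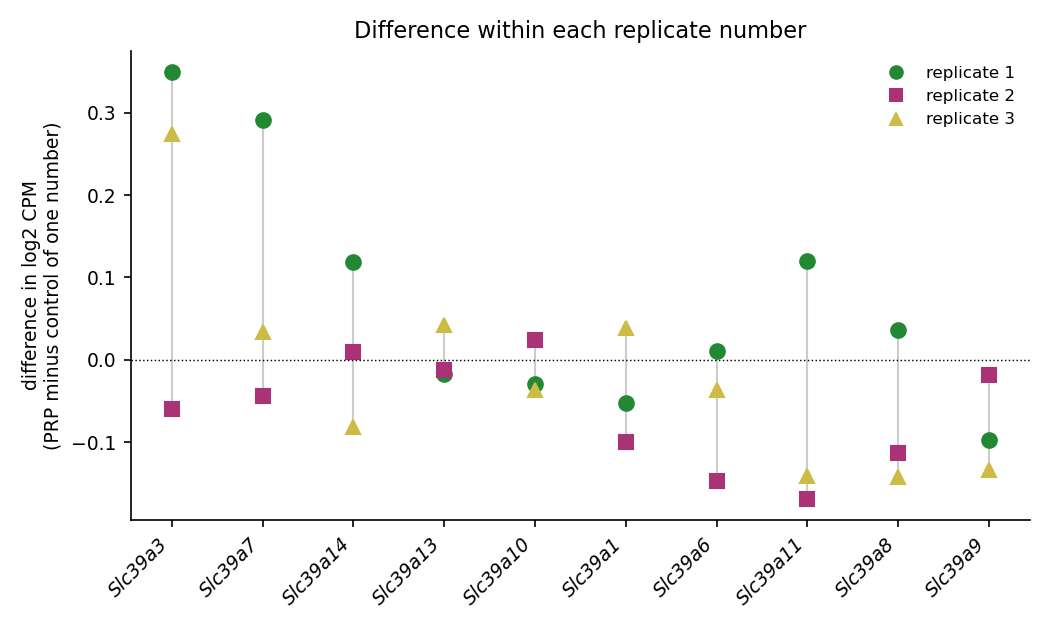
Difference in log2 CPM, PRP minus control, between libraries of the same replicate number for each SLC39 gene, ordered by the unpaired log2 fold change. Slc39a3 and Slc39a7 are furthest above 0 in replicate 1, at 0.35 and 0.29, and Slc39a9 is below 0 in all 3.

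The spread between libraries exceeded counting error in most members. The coefficient of variation of CPM over the 6 libraries ran from 2.22% for Slc39a13 to 11.3% for Slc39a3, with a median of 6.88%. Over the 9735 tested genes with a mean CPM of 15 or more, a level that all members reached, the median was 7.55%. Counting alone gives 1.24% for Slc39a1, the member of most counts, and 3.90% for Slc39a3, that of fewest. Only Slc39a13 varied less than its counting error of 3.06%. The replicate number held a median of 68.4% of the members' variance in log2 CPM, beside 55.7% over all tested genes. Treatment held a median of 8.46%, beside 11.3% over all genes. Chance gives a mean share of 40% to the replicate number and of 20% to treatment. The medians under chance were not computed, so these means are no direct measure for the medians above. The treatment share was highest for Slc39a9, at 56.2%, and Slc39a3, at 41.6%.

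**Figure D4:**
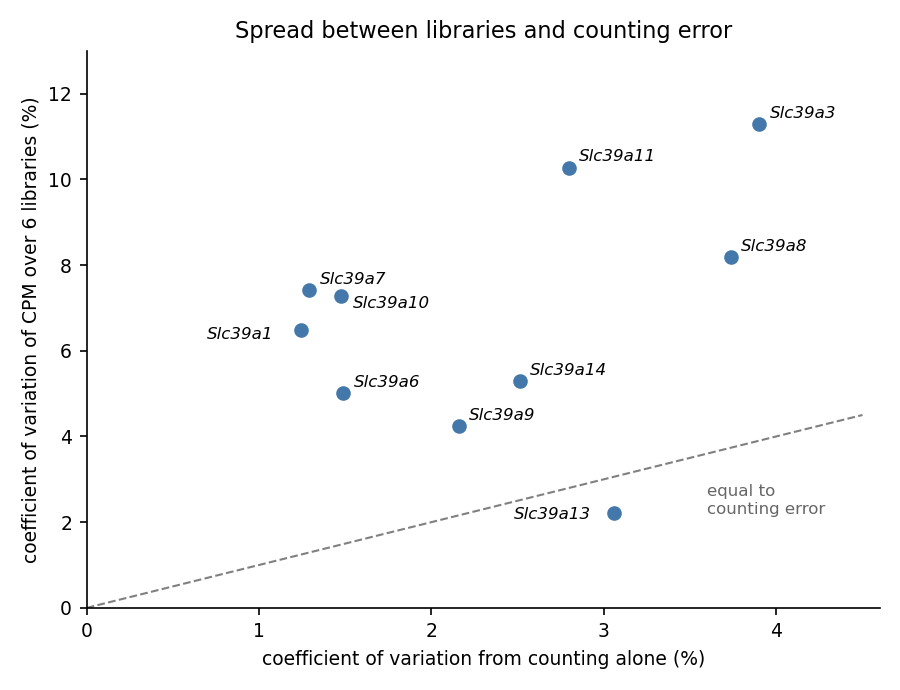
Coefficient of variation of CPM over the 6 libraries against the coefficient of variation that counting alone would give, for each SLC39 gene, with a dashed line where they are equal. Slc39a13 lies under the line at 2.22%, and Slc39a3 and Slc39a11 have the largest spread, at 11.3% and 10.3%.

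The genes whose log2 CPM ran most like 3 of the importers over the 6 libraries were found among 10720 genes of 10 CPM or more. They were Stk31, Zc3h18 and Clec14a for Slc39a6 (Pearson's r of 0.993, 0.993 and 0.991), Nolc1, Ptbp1 and Hmgb1 for Slc39a10 (0.998, 0.996 and 0.995), and Hars, Parp3 and Nradd for Slc39a14 (0.996, 0.993 and 0.991). These describe 6 libraries that share replicate numbers and were picked as the highest of many.

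The other 4 genes of the family were near the limit of detection. Slc39a2, Slc39a4, Slc39a5 and Slc39a12 lay between 0.083 and 1.77 CPM in every library, and 0 of the 4 passed the test. Slc39a4, the importer of the intestine that absorbs dietary zinc, was highest, at 1.00, 0.78 and 1.51 CPM in control and 1.51, 1.77 and 1.44 CPM in PRP. For Slc39a4 the log2 fold change was 0.52 ± 0.36 (SE). For Slc39a2, Slc39a5 and Slc39a12 it was -0.86 ± 0.66, 0.54 ± 0.59 and -0.45 ± 0.74. Each of these rests on few counts: without PRP 3, for example, Slc39a5 was at 0.15 and Slc39a12 at -1.21.

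On the opposite side of the zinc balance, 1 of 8 tested SLC30 exporters was called in edgeR with the block, 0 without it, and 2 by DESeq2 with the block. Over all tested genes 0.12% were called in edgeR with the block and 0% without it. DESeq2 with the block called 88 of the 4262 genes to which it gave an adjusted p. Slc30a1, the exporter of the plasma membrane, was at 79.7, 79.4 and 85.8 CPM in control and at 58.4, 60.5 and 68.9 CPM in PRP. These groups did not overlap, as in 9.21% of all tested genes. Slc30a1 fell by 0.39 ± 0.06 on the log2 scale with the block (SE; edgeR adjusted p = 0.0164). Its value without the block was -0.38 ± 0.08 (edgeR adjusted p = 0.9998, unadjusted p = 0.000887). The blocked call held in DESeq2 (adjusted p = 0.000224) and without replicate 3 (0.0378). It was lost without replicate 1 (0.168), without replicate 2 (0.158), in limma-voom (0.0513) and without robust estimation (0.0948). Slc30a4, an exporter of vesicles, was at 79.2, 94.1 and 98.9 CPM in control and at 66.7, 78.4 and 81.3 CPM in PRP. Only control 1 lay below a PRP library, PRP 3. Its log2 fold change was -0.27 (-0.50 to -0.04), with an adjusted p of 0.9998 in edgeR, 0.0641 with the block and 0.0181 with the block in DESeq2. The exporters had a median log2 fold change of -0.02 in the unpaired fit, with 4 of 8 above 0. Summed over all 10 exporters, levels were 455.9 to 485.5 CPM in control and 413.5 to 444.6 CPM in PRP. Slc30a10, a manganese exporter, had too few counts in most libraries to be tested and was at 3.83 CPM in control 3 and at 0.20 CPM or less in the others, apart like the erythroid markers there.

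**Figure D5:**
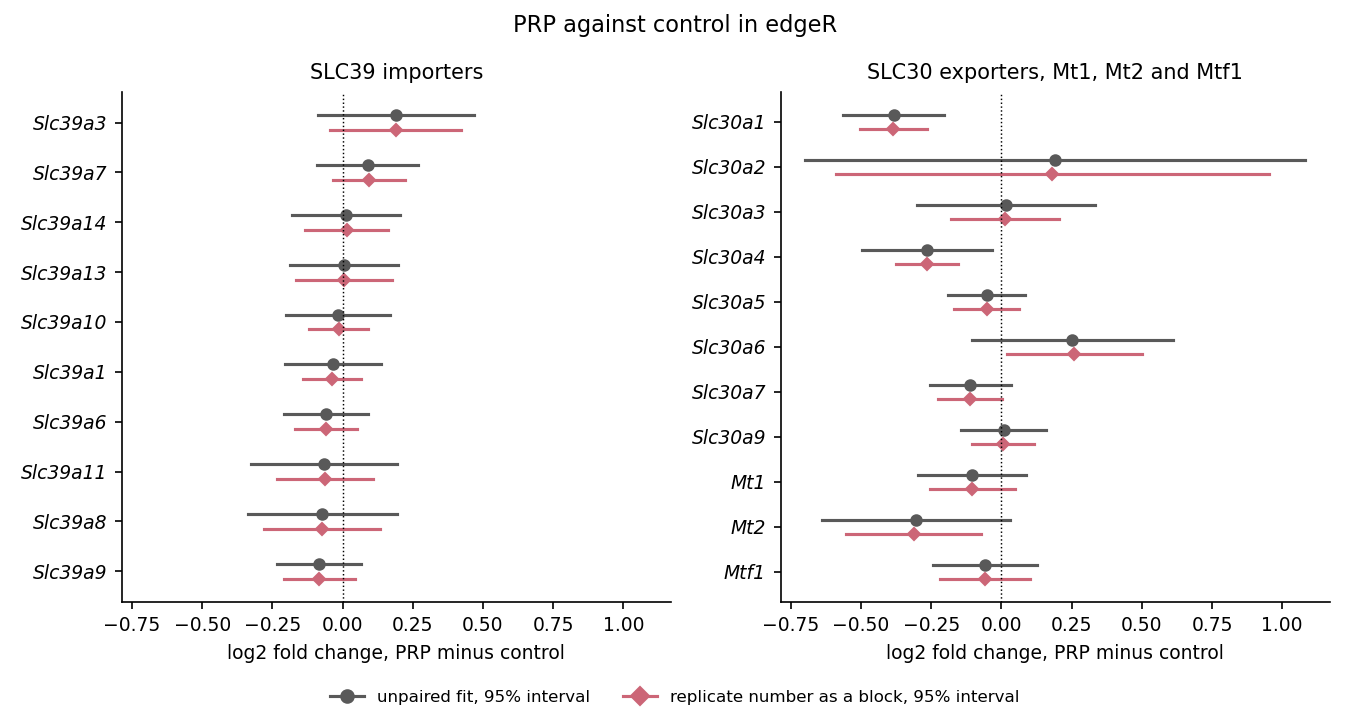
Log2 fold change, PRP minus control, with its 95% interval in the unpaired edgeR fit (grey) and with the replicate number as a block (red), for the SLC39 importers (left) and for tested SLC30 exporters, Mt1, Mt2 and Mtf1 (right). The intervals of all 10 importers span 0 in both fits, and those of Slc30a1 lie below 0.

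Zinc buffering and sensing genes gave 0 calls among 5, with a median log2 fold change of -0.06. Mt2, a metallothionein, was at 33.2, 29.6 and 37.9 CPM in control and at 21.6, 30.5 and 29.4 CPM in PRP, with a log2 fold change of -0.30 ± 0.15 (SE), and -0.16 without PRP 1. Control 2 lay among the PRP values. Mt3 was at 0.82 to 1.67 CPM in control and at 1.44 to 2.36 CPM in PRP, with 0.67 ± 0.40, and 1.07 without control 2. Of the further routes of zinc entry and delivery, 2 genes could be tested and 0 passed. Trpm7, a channel and kinase that passes zinc and magnesium, had a log2 fold change of -0.15 ± 0.07, and -0.08 without PRP 1. It was at 278.0, 277.2 and 280.0 CPM in control and at 226.4, 272.0 and 253.2 CPM in PRP. These groups did not overlap, as in 9.21% of all tested genes, and its edgeR adjusted p with the block was 0.245. Cbwd1, of a family of zinc chaperones, had one of -0.14 ± 0.15, and -0.01 without control 2.

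Iron and manganese transport genes, which share substrates with Slc39a8 and Slc39a14, gave 0 calls among 12, with 5 above 0 and a median of -0.03. Slc11a2, the divalent metal importer of endosomes and gut, had a log2 fold change of -0.18 ± 0.09 (SE), and -0.08 without control 3. Steap4, a metalloreductase, was at 62.1 CPM in control 3 and at 29.4 to 34.9 CPM in the other libraries. Its log2 fold change of -0.37 ± 0.27 became 0.02 without control 3. Of these 12 genes 8 were highest in control 3, as were 4 of the 10 importers. Without the share over all tested genes, which was not computed, these counts cannot be read as a trait of either group.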

How the data were processed

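What the authors deposited is a table of raw, unnormalised counts, 1 row per gene, that also lists Entrez identifiers. GRCm38/mm10 is the build named in the submitters' processing notes, and how reads were counted (aligner, tool, strand setting, annotation) was not given in the sources used here. Columns were matched to samples by title; the column of PRP 3 has its letters in another order and was matched because every other title has its own. The test was edgeR 4.0.16 (R 4.3.3; filterByExpr, TMM, robust quasi-likelihood F, two-sided, Benjamini-Hochberg over 17475 genes at 0.05). Standard errors were computed from the fold change and F, and intervals are at 95%. Log2 CPM used a prior count of 2. Alternatives were DESeq2 1.42.0, limma-voom (limma 3.58.1), other scaling and filters, the replicate block and leaving out libraries. The procedure was tested on simulated data. TPM used GENCODE M21 transcripts (21542 genes matched, with 99.7% of counts), and positions a RefSeq table of GRCm38.

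As a check of pairing, each library's deviation from its group mean was correlated across groups. Same-numbered libraries gave 0.24, 0.40 and 0.33, and no other combination exceeded -0.02. Deviations within a group sum to 0, so positive values at the same number push the others below 0. Those negative values are therefore no further evidence. The numbers were taken as pairs on this ground, with no label behind it, and from the same counts that the blocked fits use. The members and lists were chosen with earlier results of these data known. Named genes were the 10 members, the other 4 SLC39 genes, each list's passing genes or else its 2 smallest p-values, and 3 genes of highest correlation for Slc39a6, Slc39a10 and Slc39a14. Slc4a1, Krt19, Zp3, Slc30a4, Slc30a10, Socs3, Cebpd, Cog1 and Erh were named after their values were seen. Some results are not reported here.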

Additional observations from a re-analysis of the deposited data

How the results depend on the processing

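Over 21 alternatives, 0 of the 204 member values with an adjusted p passed the threshold, and the smallest adjusted p was 0.499. DESeq2 with the block gave no adjusted p to 6 members. The median of the members ran from -0.05 to 0.00. In 15 of all 210 values the sign was opposite to the unpaired one, all within -0.0529 to 0.06 on the log2 scale and all on leaving out libraries. Leaving out 1 library in turn gave ranges of -0.107 to 0.0244 for Slc39a1, -0.125 to 0.00116 for Slc39a8, -0.0770 to 0.05998 for Slc39a10, -0.123 to 0.0421 for Slc39a11, -0.0121 to 0.0282 for Slc39a13, -0.0529 to 0.0556 for Slc39a14 and -0.545 to 0.0235 for Steap4, the last value without control 3. With the replicate block and without each replicate in turn, Slc39a7 ran from -0.00649 to 0.163, Slc39a13 from -0.0148 to 0.0135, Slc39a14 from -0.0375 to 0.0637, Steap4 up to 0.0939 and Slc39a12 up to 0.0170. The cause was not tested.

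The count of all genes called was 0 in the unpaired fit, with 557 at an unadjusted p under 0.05, and 0 in DESeq2 and limma-voom. It was 21 with the replicate block, 88 with the block in DESeq2, which gave an adjusted p to 4262 genes, 0 with the block in limma-voom or without robust estimation, and 1 to 19 with the block without each replicate. Fixed-list genes called numbered 0 in the unpaired fit, 1 with the block, 2 with the block in DESeq2 and 0 to 2 with the block without each replicate. The block changed no member's call. Slc39a3 and Slc39a8 have the fewest counts and the widest intervals.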
